A study of Mus musculus with 6 samples.

Results

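A set of 10 genes of fat storage was examined in hepatocytes, the parenchymal cells of the liver, on 6 expression arrays. The members are Pparg and 9 genes tied to lipid droplets or liver steatosis, namely Cd36, Fabp4, Mogat1, Fitm1, Cidec, Cidea, Plin2, Plin4 and Hsd17b13, out of 12393 genes measured. They were found by gene symbol, 15 probe sets among the 20380 that carry a single symbol, and the brightest probe set stands for each gene. The set was drawn up with differences between these same arrays known, so the members' own values are given as a description and without a test. Of the arrays, 3 came from Alb/AEG-1 transgenic mice, in which AEG-1 (gene symbol Mtdh) is overexpressed in hepatocytes by way of the albumin promoter, and 3 from wild-type mice. Both genotypes were of a mixed B6/CBA strain, and all cells were untreated primary hepatocytes kept for 24 h on collagen-coated plates, so the values are those of cultured cells. Neither the animals' age nor whether each array stands for a separate animal is stated in the labels.

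Triglyceride is kept in lipid droplets, a neutral lipid core under a single layer of phospholipid studded with proteins. PPARG, a nuclear receptor that binds DNA together with RXR, is the master regulator of adipocyte formation. In mouse liver it is normally scarce, and it is known to increase in steatosis, where droplet genes such as Cidec, Cidea, Plin4 and Mogat1 increase with it.

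Values are on the log2 scale of RMA, an array method that corrects background, gives all arrays one distribution and combines the probes of a set into 1 value. A difference of 1 is a 2-fold change, and levels of different genes cannot be set against each other because probes differ in brightness. Array medians lay between 5.61 and 5.64, and the lowest value in the table was 2.26. The brightest Mtdh probe set was at 10.72, 10.40 and 10.81 in transgenic cells and at 8.75, 8.78 and 8.64 in wild-type cells, while its other 5 probe sets differed by between -0.27 and 0.24. The labels do not give the species of the transgene, so which of the 6 probe sets can detect its RNA is not known here. Of all 12393 genes, 846 were higher and 1121 lower in transgenic cells, 6.83% and 9.05% of them and 15.9% together, by limma with Benjamini-Hochberg adjustment at 0.05. Without transgenic replicate 1 these counts were 540 and 727, and without transgenic replicate 3 the lower genes numbered 741. All 13 measured hepatocyte markers missed the limma threshold (0 called, and 0 at an unadjusted p under 0.05), with a mean level between 13.36 and 13.41 in transgenic arrays and between 13.36 and 13.40 in wild-type arrays. The highest value of every array was 14.99, and bright markers such as Alb, at 14.7 in both genotypes, lay close to it, where a difference may not show.

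All 10 members had a lower mean in transgenic cells, and the median difference over them was -1.28, beside 0.01 over all genes. The range ran from -2.77 for Hsd17b13 to -0.13 for Cidea. By the threshold used for all genes 8 of the 10 were lower, where 9.05% of all genes were, and the transgenic and wild-type arrays did not overlap for 9 of them, where 17.6% of all genes had every transgenic array under every wild-type array. At least 2-fold lower means were seen in 5 members, against 0.355% of all genes, and 3 more that passed the threshold were lower by less than 2-fold. Because the members were picked on this contrast, nothing is read from any of these shares. In RNA from a whole culture, fewer cells that express a gene and less of its RNA per cell cannot be told apart.

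**Figure D1:**
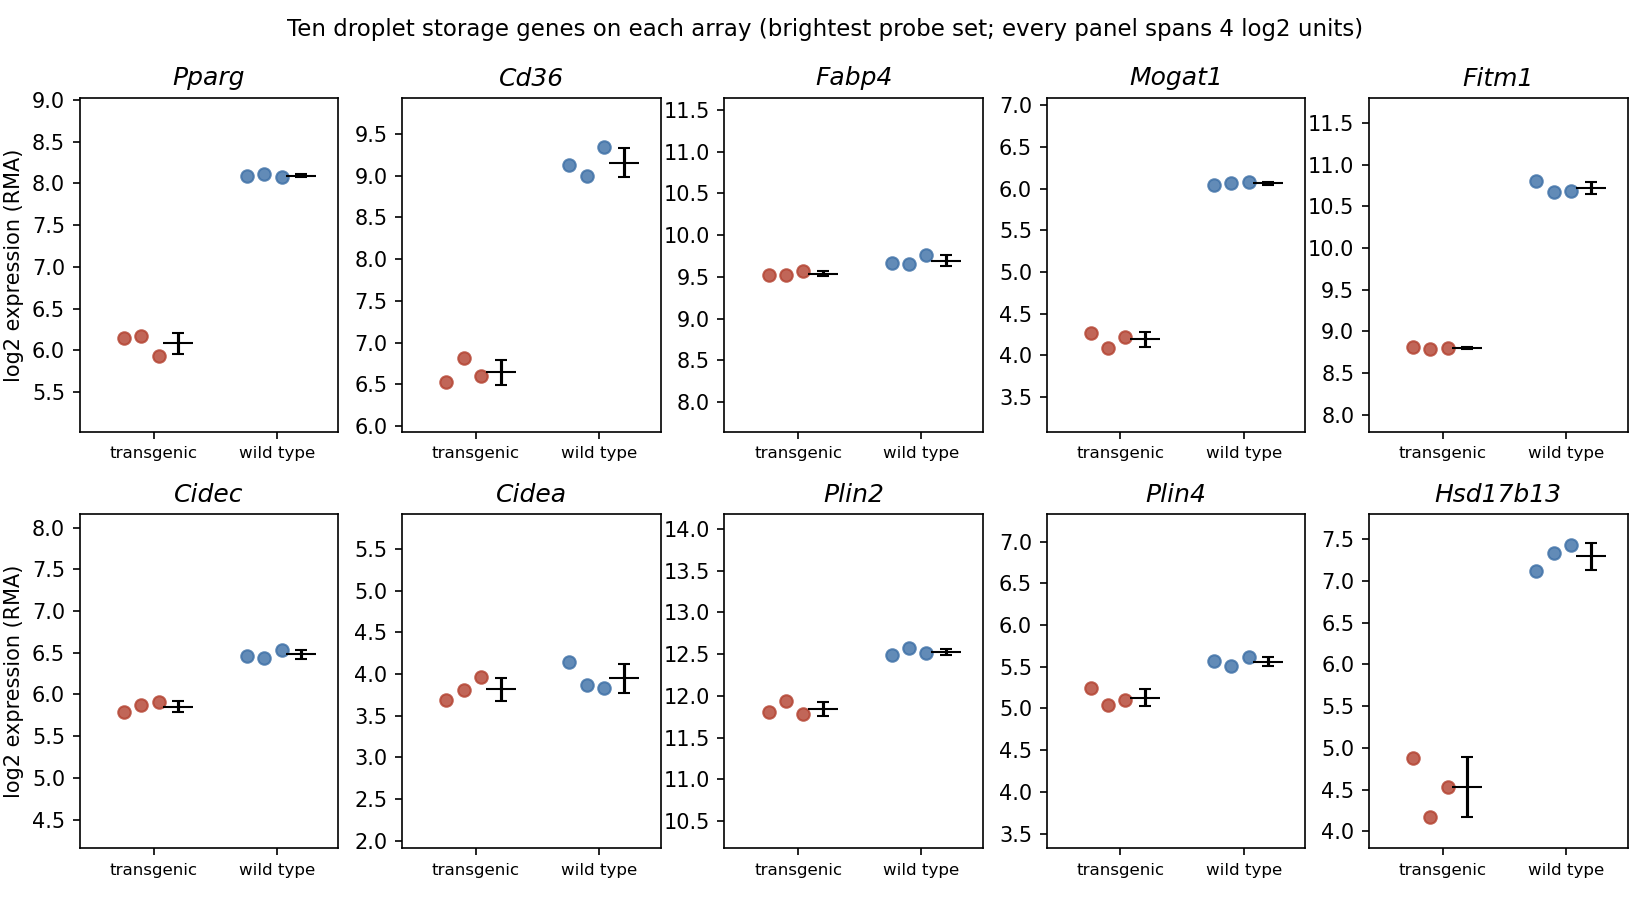
Log2 expression of each of the 10 genes on every array, transgenic at the left and wild type at the right of each panel, with the mean and SD (n = 3) beside the points. Every panel spans 4 log2 units, so distances can be compared between panels: Pparg, Cd36, Mogat1, Fitm1 and Hsd17b13 show wide gaps, Cidec, Plin2 and Plin4 narrow ones, Fabp4 a slight one, and the Cidea points overlap.

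Pparg, the receptor, stood at 6.15, 6.17 and 5.94 in transgenic cells, against 8.09, 8.11 and 8.07 in wild-type cells. Every transgenic array was about 2 units under every wild-type array, and the 3 wild-type values were almost the same. The means were 6.08 ± 0.13 in transgenic cells and 8.09 ± 0.02 in wild-type cells (SD, n = 3 each), a difference of -2.01 (SE 0.07), or 4.03-fold. The only Pparg probe set on this array carries the suffix that marks a match to several transcripts of 1 gene, so its value does not separate the Pparg isoforms. Only 6 genes in the whole table had a more negative difference, since Pparg ranked number 7 of 12393.

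Among genes for fatty acid entry, Cd36, the membrane fatty acid translocase and scavenger receptor, was at 6.52, 6.81 and 6.60 in transgenic cells, against 9.13, 8.99 and 9.34 in wild-type cells. The groups lay far apart on all 3 Cd36 probe sets, with differences of -2.51 (SE 0.11), -2.73 (SE 0.10) and -2.11 (SE 0.17) from the brightest to the dimmest. On the dimmest the transgenic values, 3.70, 3.87 and 3.87, were all under the array median, against 6.18, 5.48 and 6.12 in wild-type cells, and one wild-type value there was under the median too.

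Fabp4, a cytosolic fatty acid binding protein of adipocytes, macrophages and capillary endothelium, was at 9.53, 9.52 and 9.57 in transgenic cells, against 9.67, 9.65 and 9.77 in wild-type cells. The groups did not overlap, yet the gap was narrow, with a difference of -0.16 (SE 0.06). The other 3 Fabp4 probe sets gave -0.18 (SE 0.07), -0.38 (SE 0.06) and -0.23 (SE 0.08). The one at -0.38 had 6.70, 6.60 and 6.64 in transgenic and 7.09, 7.00 and 6.98 in wild-type cells. The choice of probe set therefore moves the Fabp4 difference by more than 1.5 times.

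Mogat1, a monoacylglycerol acyltransferase that makes diacylglycerol, was at 4.27, 4.09 and 4.22 in transgenic cells, against 6.04, 6.07 and 6.08 in wild-type cells. The wild-type arrays were just over the array median and the transgenic arrays well under it, close enough to background to make the fold uncertain. The difference was -1.87 (SE 0.06), or 3.65-fold.

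Fitm1 encodes a membrane protein of the endoplasmic reticulum that partitions triglyceride into forming droplets, known in the mouse chiefly from muscle. It was at 8.81, 8.79 and 8.80 in transgenic cells, against 10.81, 10.68 and 10.68 in wild-type cells. Both sets of arrays lay well over the array median and were tight, with an SD of 0.01 in transgenic and 0.07 in wild-type cells. The difference was -1.92 (SE 0.06), or 3.79-fold.

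Hsd17b13, a dehydrogenase of the droplet surface found mostly in liver, was at 4.88, 4.17 and 4.53 in transgenic cells, against 7.12, 7.33 and 7.43 in wild-type cells. Its difference, -2.77 (SE 0.17), was the most negative of the members. Its transgenic arrays also varied the most among the members, with an SD of 0.36 against 0.16 in wild-type cells, and all 3 lay under the array median, low enough that the fold and its order among genes are uncertain.

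Cidec, which moves triglyceride between touching droplets and so enlarges them, was at 5.78, 5.87 and 5.91 in transgenic cells, against 6.47, 6.44 and 6.54 in wild-type cells. The difference of -0.63 (SE 0.06) was 1.54-fold, with no overlap between the genotypes. Cidea, its relative from brown fat and steatotic liver, was at 3.69, 3.80 and 3.96 in transgenic cells, against 4.15, 3.87 and 3.83 in wild-type cells. The Cidea values overlapped and were under the array median on all 6 arrays, and the difference was -0.13 (SE 0.10), so a change could not be read at this signal. That value hung on single arrays, at -0.03 without wild-type replicate 1, -0.07 without transgenic replicate 1 and -0.20 without transgenic replicate 3.

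Plin2, the perilipin that coats droplets in most cells, had the brightest probe set of the members at 11.81, 11.94 and 11.79 in transgenic cells, against 12.49, 12.57 and 12.52 in wild-type cells. The genotypes were separate, by -0.68 (SE 0.06), or 1.61-fold. Plin4, a perilipin of adipocytes that binds small nascent droplets, was at 5.24, 5.04 and 5.10 in transgenic cells, against 5.56, 5.50 and 5.61 in wild-type cells. Its 6 arrays were all under the array median, and the difference was -0.43 (SE 0.07), or 1.35-fold.

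**Figure D2:**
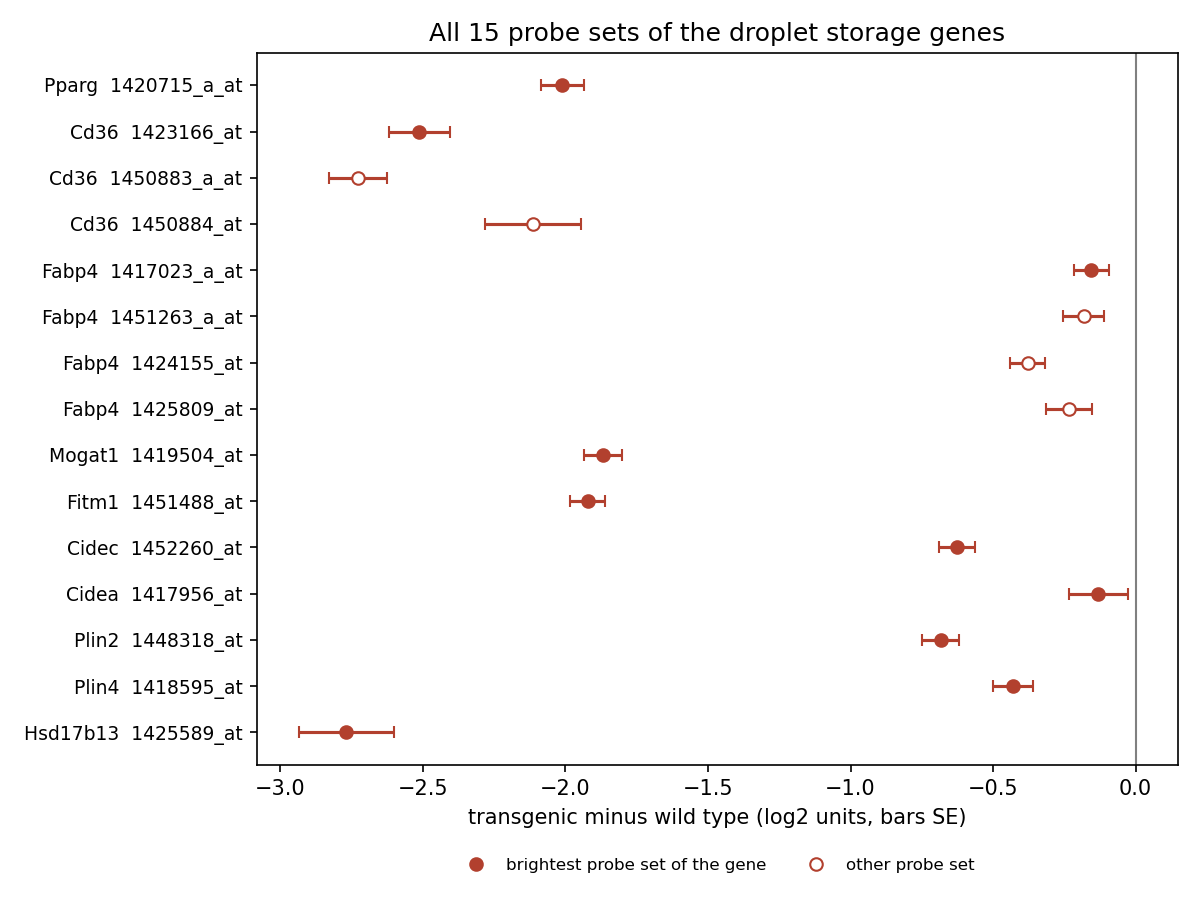
Transgenic minus wild-type difference in log2 units, with SE, for all 15 probe sets of the 10 genes, filled where the probe set is the brightest of its gene. All 15 lie to the left of 0; the 3 Cd36 probe sets run from -2.73 to -2.11 and the 4 Fabp4 probe sets from -0.38 to -0.16.

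Promoters of the members were searched for the letters of the element that PPAR and RXR bind. PPARG with RXR binds DR1 elements, a pair of half-sites spaced by 1 base, searched here as AGGTCANAGGTCA on both strands with at most 2 mismatches, and the exact half-site AGGTCA was searched as well. Promoter windows of RefSeq, build GRCm38.p6, were at hand for 8 of the 10 members, 11 windows of 300 bases in all, from 250 bases before a transcript start to 50 after it. A DR1 match was found in 3 of them, those of Cd36, Mogat1 and Plin2, and an exact half-site in 5, those of Pparg (2 of its 3 windows), Cd36, Plin2 and Hsd17b13. Over the 12566 windows of all measured genes, 3.06% held a DR1 match and 13.6% a half-site. The DR1 matches are shown first and then a half-site for each of Hsd17b13 and Pparg, the matched letters in capitals on the strand of the gene, so that a match on the other strand appears as its reverse complement.
Cd36, chr5:17835927-17835979, minus strand: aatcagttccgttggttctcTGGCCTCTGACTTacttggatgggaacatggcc
Mogat1, chr1:78510989-78511041, plus strand: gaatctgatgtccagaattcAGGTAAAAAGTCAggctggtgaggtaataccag
Plin2, chr4:86670252-86670304, minus strand: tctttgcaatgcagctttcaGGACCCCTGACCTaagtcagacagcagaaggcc
Hsd17b13, chr5:103977459-103977504, minus strand: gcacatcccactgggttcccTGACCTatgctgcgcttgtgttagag
Pparg, chr6:115361096-115361141, plus strand: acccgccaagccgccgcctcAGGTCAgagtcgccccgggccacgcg
The DR1 match began at base -63 from the start in Cd36, at -51 in Mogat1 and at -225 in Plin2, each with 2 mismatches, and the Plin2 half-site lies inside its DR1 match. The windows of Fitm1, Cidec and Plin4 held neither pattern, which says only that these letters are not in those windows. The genes with a DR1 match thus include Cd36 and Mogat1, with differences of -2.51 and -1.87, and Plin2, at -0.68, while Fitm1, at -1.92, has none in its window.

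Relatives of the members that were not in the set were measured beside them. Of 17 measured relatives from 7 families or functional groups, 3 were lower, 2 higher and 12 did not pass the limma threshold. Over all genes, 9.05% were lower and 6.83% higher, and nothing is read from the count of relatives. Ppara, the receptor that drives fatty acid oxidation in liver, was lower, at 8.13, 7.99 and 8.01 in transgenic cells and 8.71, 8.98 and 8.74 in wild-type cells, a difference of -0.77 (SE 0.08, adjusted p = 0.000748). Ppard, the remaining receptor of the family, gave 5.20 ± 0.13 in transgenic and 5.10 ± 0.28 in wild-type cells (adjusted p = 0.701).

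Among perilipins, Plin5, which couples droplets to mitochondria, was lower by 0.37 (SE 0.05, adjusted p = 0.00261), at 7.48, 7.51 and 7.48 in transgenic and 7.86, 7.91 and 7.83 in wild-type cells. Plin3, a broadly expressed droplet coat, gave a difference of 0.01 (SE 0.06, adjusted p = 0.959). Cideb, the CIDE protein of normal liver that acts in lipoprotein lipidation, gave 11.22 ± 0.09 in transgenic and 11.22 ± 0.05 in wild-type cells (difference 0.01, SE 0.07, adjusted p = 0.972). Hsd17b11, the closest relative of Hsd17b13 and also a droplet protein, gave -0.07 (SE 0.06, adjusted p = 0.483).

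Fabp5, the epidermal fatty acid binding protein, was higher in transgenic cells, with 12.34, 12.20 and 12.37 in transgenic cells and 11.31, 11.41 and 11.44 in wild-type cells. The Fabp5 difference was 0.92 (SE 0.07, adjusted p = 0.000102), and its second probe set gave 1.07. Fabp1, the abundant liver form, gave -0.05 (SE 0.05, adjusted p = 0.617). Scarb1, a class B scavenger receptor like Cd36 that takes up cholesterol from HDL, was higher by 0.26 (SE 0.06, adjusted p = 0.0203), a call lost on leaving out any one of transgenic replicates 1, 2 and 3 or wild-type replicates 1 and 3 (adjusted p up to 0.0720). The second monoacylglycerol acyltransferase, Mogat2, stood under the array median, at 4.58 ± 0.16 in transgenic and 4.57 ± 0.18 in wild-type cells (adjusted p = 0.972). The difference between a member and its relative was not tested.

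**Figure D3:**
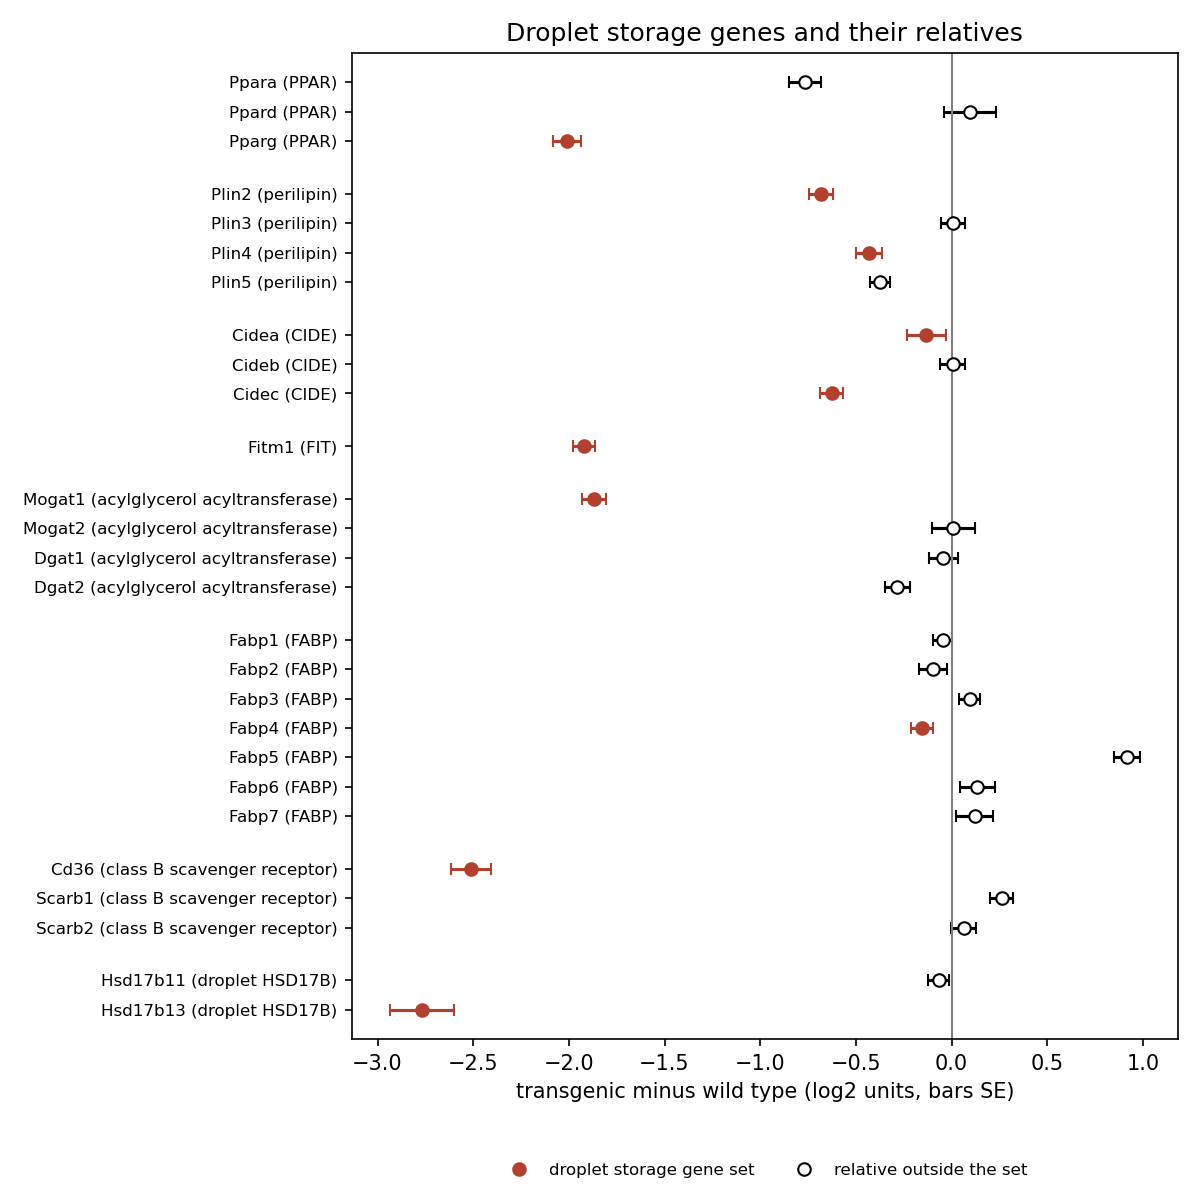
Transgenic minus wild-type difference in log2 units, with SE, for the 10 genes (filled) and their measured relatives (open), grouped by family or function. Cd36 and Hsd17b13 lie more than 2 units to the left of their relatives, Ppara lies between Pparg and Ppard, and Fabp5, at 0.92, is the farthest to the right.

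Around Pparg, genes of its partners, coregulators and fellow adipogenic factors were lower in 7 of 24 cases and higher in 2, with a median difference of -0.12. Together 37.5% were called, beside 15.9% of all genes. This list and those below were chosen with earlier results of these arrays known, so nothing is read from their shares. Nrip1, a nuclear receptor corepressor, was lower by 0.87 (SE 0.09, adjusted p = 0.000531), and both Nrip1 probe sets passed. Beside Ppara, the adipogenic factors Cebpd and Klf15 were lower by 0.47 and 0.58 (adjusted p = 0.00139 and 0.00235). The other Cebpd probe set gave -0.15 and did not pass, and the mean over both was -0.31. Rxra, the main RXR partner in liver and named after its value was seen, was lower by 0.38 (SE 0.06, adjusted p = 0.00610), but its other probe set gave 0.06, and the mean over both gave -0.16 (adjusted p = 0.0658). The 2 higher genes were Ncoa3, a coactivator, at 0.43 and Cebpb at 0.24. The Cebpb call was lost without any one of transgenic replicates 1 to 3 or wild-type replicates 1 and 2, and with the replicate number as a block (adjusted p up to 0.0827).

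Of 26 other genes of droplet coat, growth and lipolysis, 7 were lower, 1 was higher and 18 did not pass, with a median of -0.02. The share called was 30.8%, beside 15.9% of all genes. Without transgenic replicate 1, and likewise without replicate 3, 4 were lower. G0s2, an inhibitor of the lipase ATGL, was lower by 0.93 (SE 0.06, adjusted p = 5.56e-05), at 7.26 ± 0.07 in transgenic and 8.19 ± 0.03 in wild-type cells (SD, n = 3). Spast, a microtubule-severing enzyme with a droplet-targeted form, was lower by 0.61 (adjusted p = 0.000888). Pcyt1a, which makes the phosphatidylcholine that covers growing droplets, was lower by 0.40 (adjusted p = 0.00271), although only 1 of its 4 probe sets passed and the mean over them was -0.25. Abhd5, the activator of the same lipase and named as the single higher gene, gave 0.34 (SE 0.06, adjusted p = 0.00652). The lipase itself, Pnpla2, gave -0.03 (adjusted p = 0.784) and the hormone-sensitive lipase Lipe -0.01 (adjusted p = 0.972).

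In glycerolipid acylation, the path from glycerol phosphate to triglyceride, 3 of 15 genes were lower and 1 was higher, with a median of -0.05. The share called was 26.7%, beside 15.9% of all genes. The phospholipid phosphatase Plpp3 was lower by 0.45 (SE 0.06, adjusted p = 0.00272), on both probe sets. Gpat4, a glycerol phosphate acyltransferase, was lower by 0.41 and Dgat2, which completes triglyceride, by 0.28. Each has a second probe set, at 0.13 for Gpat4 and close to 0 for Dgat2, and with the mean over the probe sets neither passed (adjusted p = 0.264 and 0.167). Dgat2 also missed the threshold without transgenic replicate 1 or 3 or wild-type replicate 1 or 2. Gpd1, which makes glycerol phosphate, was higher by 0.33 (adjusted p = 0.00525), but its 4 probe sets ran from -0.01 to 0.84 and 2 of them passed. Gpam, the mitochondrial acyltransferase of the first step, gave -0.09 (adjusted p = 0.364).

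In fatty acid uptake, binding and activation, 3 of 24 genes were lower and 2 higher, with a median of -0.03. The share called, 20.8%, was close to the 15.9% of all genes. Cav1, the caveolar coat protein, was lower, at 4.77 ± 0.11 in transgenic and 5.99 ± 0.11 in wild-type cells (difference -1.22, SE 0.08, adjusted p = 6.06e-05). Its transgenic arrays were all under the array median, so the fold is uncertain. Acsl5, an acyl-CoA synthetase, was lower by 0.22 (adjusted p = 0.0435) and Slc27a4, a fatty acid transport protein named after its value was seen, by 0.26 (adjusted p = 0.0491). The Acsl5 call was lost on leaving out any one array but transgenic replicate 2, with the replicate number as a block and without suffixed probe sets (adjusted p up to 0.139). The Slc27a4 call was lost on leaving out any one of the 6 arrays, with quantile normalization and without suffixed probe sets (adjusted p up to 0.140). Without any one of transgenic replicates 1 and 3 or wild-type replicates 2 and 3, 1 gene of this group was lower. Lpl, lipoprotein lipase, gave -0.02 (adjusted p = 0.890).

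In a list drawn up as adipocyte targets of PPARG, 11 of 25 genes were lower and 1 was higher, with a median of -0.11. Over all genes, 9.05% were lower. Several of these genes are also, or chiefly, PPARA targets in liver, and earlier results of these arrays named some of them. The count is therefore not one of PPARG targets alone, and nothing is read from its share. Cyp4a14, a fatty acid omega-hydroxylase regulated by PPARA, was lower by 3.20 (SE 0.12, adjusted p = 2.58e-06). Angptl4, an inhibitor of lipoprotein lipase, was lower by 1.92 (SE 0.06, adjusted p = 1.86e-06), and by 0.69 on its other probe set. Pdk4, which spares glucose by blocking pyruvate dehydrogenase, was lower by 1.69 (SE 0.08) and Txnip, a brake on glucose uptake, by 1.04 (SE 0.06), and by 0.40 on its other probe set. Some adipocyte genes of the list were dim on both sides, with Adipoq at 3.30 in transgenic and 3.19 in wild-type cells, Lep at 3.60 and 3.51, and Aqp7 at 3.99 and 4.07 (adjusted p = 0.530, 0.400 and 0.696). Slc2a4 lay over the array median, at 6.78 in transgenic and 6.79 in wild-type cells (adjusted p = 0.950). The 1 higher gene was Pck1, at 0.30 (adjusted p = 0.0150), a call lost on leaving out transgenic replicate 1 (adjusted p = 0.0562).

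Cd36 and Fabp4 are expressed in macrophages and endothelium as well, and Fabp4, Plin4 and Cidec in adipocytes, so markers of those cells were measured beside them. None of 9 adipocyte markers passed (0 by limma, while 1, Thrsp, had an unadjusted p under 0.05). Thrsp was at 13.218 in transgenic and 13.376 in wild-type cells, without overlap (limma adjusted p = 0.0728). The mean level of the list was between 6.74 and 6.81 in transgenic arrays and between 6.74 and 6.84 in wild-type arrays. It was raised by Thrsp and by Car3, at 14.001 and 14.075, the brightest of the list. The list mean is therefore not read as a measure of adipocytes. Adipoq and Lep, the defining genes, were near the floor of the table, as given above. Macrophage markers had a mean level of 6.62 to 6.66 in transgenic arrays and 6.39 to 6.48 in wild-type arrays, with 4 of 19 higher (Ptprc, Mrc1, Marco and C1qc, by 0.35 to 0.69) and 1 lower (Cd14, by 0.45). Endothelial markers had 5.60 to 5.69 in transgenic arrays and 5.43 to 5.58 in wild-type arrays, with 2 of 17 higher (Clec4g and Kdr) and 15 not past the threshold. Both lists thus had higher mean levels in the transgenic arrays, where Cd36 and Fabp4 were lower, and their part in the members' values was not tested. Stellate cell markers gave 5.32 to 5.41 in transgenic and 5.20 to 5.27 in wild-type arrays, with 1 of 14 higher (Lum). The share called was 26.3% of macrophage, 11.8% of endothelial and 7.14% of stellate cell markers, beside 15.9% of all genes. Single arrays decided some of these calls: Lum was lost without any one array, Kdr without any one of replicates 2 and 3 of either genotype, Marco without transgenic replicate 1 or wild-type replicate 2 or 3, and C1qc without any one of replicates 1 and 2 of either genotype (adjusted p up to 0.132).

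**Figure D4:**
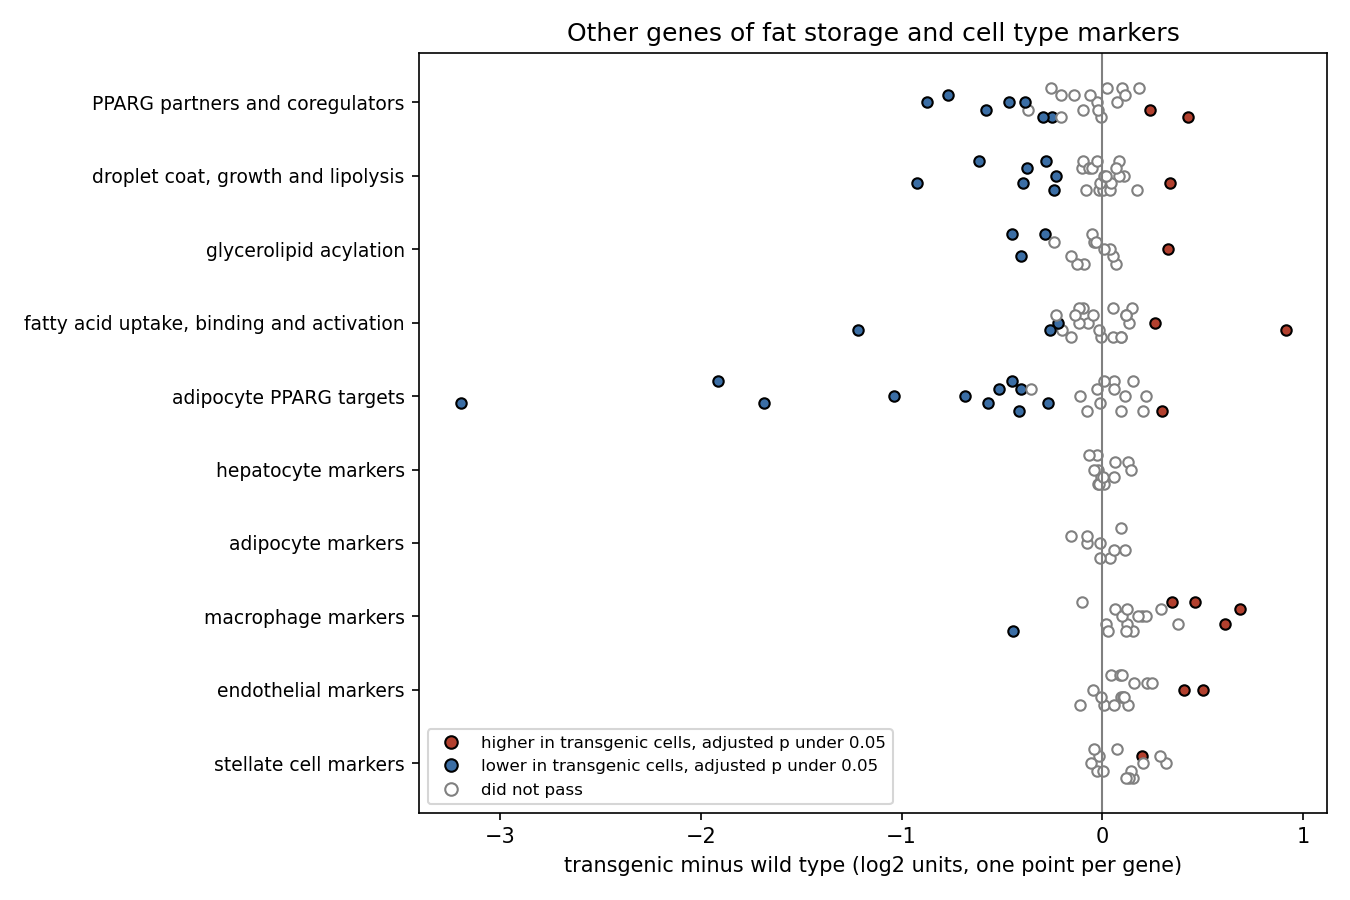
Transgenic minus wild-type difference in log2 units for every measured gene of 5 lists of fat storage genes (the 10 members left out) and of 5 lists of cell type markers, 1 point per gene, coloured where limma's adjusted p was under 0.05. Lower genes reach -3.20, for Cyp4a14, in the list drawn up as adipocyte PPARG targets, while all hepatocyte and adipocyte markers are open points near 0.

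The genes closest to Pparg over the 6 arrays were ranked by the distance between profiles after each was centred on its own mean. The 8 nearest of 12171 named genes were Angptl4, Pltp, Fitm1, Mogat1, Ighm, Dio1, Gnai1 and Pm20d1, at distances of 0.15 to 0.46 log2 units. Fitm1 was thus at rank 3 and Mogat1 at rank 4, and Cd36 followed at rank 15, Hsd17b13 at 28, Plin2 at 104, Cidec at 150 and Plin4 at 382. Fabp4 and Cidea were far down, at ranks 1961 and 2687. Angptl4 had 8.74, 8.84 and 8.66 in transgenic cells and 10.63, 10.69 and 10.68 in wild-type cells. Pltp, the phospholipid transfer protein, had 7.62, 7.71 and 7.61 in transgenic cells and 9.54, 9.55 and 9.60 in wild-type cells. Both were lowest on transgenic array 3, as was Pparg. The 6 points hold 2 genotypes, so likeness mostly means a difference of the same size. The members were picked on this same contrast, so nothing is read from their ranks. The place of Ighm rests on 1 of its 11 probe sets, which ran from -2.10 to 0.31. Without suffixed probe sets the Ighm difference was 0.14 (adjusted p = 0.408). The places of Angptl4 and Gnai1 also rest on the brightest probe set of each. Angptl4 gave -0.69 on its other probe set. The 3 Gnai1 probe sets ran from -1.93 to -0.14, with a mean of -0.96.

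In the reference gene order, the 5 measured genes on each side of every member made up 100 genes, of which 13 were lower and 6 higher, 19% together beside 15.9% of all genes. The next measured gene to Cd36 on chromosome 5 is Gnai1, a G protein subunit, at 4.23, 4.36 and 4.38 in transgenic cells and 6.26, 6.41 and 6.09 in wild-type cells. That difference was -1.93 (SE 0.09, adjusted p = 9.10e-06), or -0.81 on leaving out probe sets that can match several transcripts. The gene after it, Phtf2, was lower by 0.40 (adjusted p = 0.00673). Plin5 lies next to Plin4 on chromosome 17 and Fabp5 close to Fabp4 on chromosome 3, the first pair lower together and the second pair apart in direction. These neighbours were chosen for mention after their values were seen.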

How the data were processed

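The authors deposited log2 expression values per probe set, for which the submitters' processing notes name RMA and Affymetrix Expression Console without a version. Whether the 6 arrays were processed together is not stated. RMA gives all arrays one distribution, so values are relative to the other genes. Of 22690 probe sets, 64 were controls, 691 carried several symbols and 1555 none. These stayed out, and none of those with several symbols (0) included a member. The platform annotation was matched by gene identifier to the GRCm38.p6 gene table for 20351 probe sets.

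Each gene was its probe set with the highest mean. Genotypes were compared with limma 3.58.1 in R 4.3.3 (lmFit and eBayes, two-sided, transgenic minus wild type), with Benjamini-Hochberg adjustment over all genes and a threshold of 0.05. The fit was tested on simulated data drawn from the real genes, with 200 genes changed. It recovered 66% of changes of 0.5 log2 units, with 5 false calls, and 96.5% of changes of 1, with 12. With no gene changed there were 0 false calls. Missing the threshold at a small difference is therefore not evidence of no change. Arrays have no read depth, and their number limits the precision. The labels call the arrays biological replicates but do not say whether each is a separate animal or culture. The p-values therefore cover only the spread between these samples.

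The members and all lists were chosen with earlier results of these data known. Named by rule were the members, Mtdh, up to 4 genes with the smallest p among those past the threshold in each list, and the 8 genes nearest to Pparg. Genes named outside this rule, such as Pnpla2, Lipe, Gpam, Lpl and Slc2a4, were chosen after their values were seen. Alternatives were a gene's mean over its probe sets, probe sets without the suffixes x, s or a, a filter on dim genes, quantile normalization, a variance trend, array weights, a replicate block and leaving out each array. Neighbouring genes, relatives and promoters were added after the data were seen.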

Additional observations from a re-analysis of the deposited data

How the results depend on the processing

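The differences of 2 members, Fabp4 and Cidea, moved by more than 1.5 times. Fabp4 went to -0.24 with the mean of its probe sets and to -0.38 without probe sets of the suffixes x, s or a, and Cidea lay between -0.20 and -0.03 with one array left out. Pparg has no value without probe sets of the suffixes x, s or a, because its only probe set carries one of them. With one array left out, Pparg lay between -2.05 and -1.94, Cd36 between -2.60 and -2.42 and Hsd17b13 between -2.95 and -2.59. Over those 6 fits the count of genes higher ran from 540 to 739 and lower from 727 to 961. With all 6 arrays the counts were 846 and 1121, and what made them differ was not tested. The counts for partners of PPARG ran from 1 to 2 higher and 5 to 7 lower. Droplet coat, growth and lipolysis ran from 4 to 6 lower, glycerolipid acylation from 2 to 4 lower, fatty acid uptake from 1 to 2 higher and 1 to 2 lower, and adipocyte targets from 0 to 1 higher and 10 to 11 lower. Partners of PPARG had 1 higher gene with the filter on dim genes, which tests fewer genes, and 1 with the replicate block. Without suffixed probe sets, fatty acid uptake had 1 higher and 0 lower genes (10529 genes were tested). Cav1 was not among those tested, because its only probe set carries a suffix. With a variance trend, glycerolipid acylation had 5 lower genes; the cause was not tested. Same-numbered arrays had deviations from their group means that correlated at -0.010, -0.010 and 0.104, the last being the highest of all pairs. Not every array correlated best with its own number. These deviations thus do not show that the numbers pair the samples, but with 3 arrays per genotype they cannot exclude it. The replicate block moved no other count by over 1.5 times. Dim genes such as Cidea and Plin4 limit what the signal can show.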
